A study of Mus musculus with 4 samples.

Results

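Integrins are surface receptors built from an alpha and a beta subunit, and 7 subunit genes of the forms found on megakaryocytes and platelets were compared between old and young mice: Itga2b, Itgb3, Itga2, Itga6, Itga5, Itgav and Itgb1. They were found by symbol among the 56793 gene rows of the deposited TPM table, all 7 had a row, and all 7 were among the 16073 genes kept for testing, those averaging at least 1 TPM. TPM (transcript abundance scaled to a fixed total) is a level corrected for transcript length, so genes can be compared with each other within a library. The 4 libraries hold poly(A)-selected RNA of cells sorted as megakaryocytes from bone marrow, 2 libraries from young and 2 from old mice. The labels spell the genotype of all 4 as Blc6 and give no mutation, treatment, age, sorting gate or number of animals per library. Nothing in them says that the libraries of a group came from separate animals, so p-values measure the spread among these 4 samples, and that may be technical. Megakaryocytes are the large marrow cells that shed platelets, and the title names PF4, a chemokine of platelets, as a regulator of stem cell ageing in blood.

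The product of Itga2b (CD41) pairs with that of Itgb3 (CD61) in the fibrinogen receptor of platelets, which binds fibrinogen and von Willebrand factor once signals inside the cell have opened it, and links platelets to each other. The product of Itgav also pairs with that of Itgb3, in the vitronectin receptor. The product of Itgb1 pairs with those of Itga2, Itga5 and Itga6 in receptors for collagen, fibronectin and laminin, and is made by most cell types. Itga2b is a standard marker of megakaryocytes and is also made by some blood stem and progenitor cells, while Itga5, Itga6, Itgav and Itgb1 are made by many other marrow cells.

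All 15 megakaryocyte markers of a list without integrins were above 0 in every library and summed to 1809 and 2311 TPM in the young libraries and to 1046 and 1483 TPM in the old. The 16 neutrophil markers, all above 0, summed to between 140860 and 146890 TPM in the young and to between 125340 and 125700 TPM in the old libraries. Genes of antibody chains took 0.896% to 1.03% of all TPM in the young and 13.1% to 13.3% in the old libraries, and since TPM has a fixed total this lowers every other gene in the old ones. Among all tested genes 2369 were called lower in old and 835 higher (limma on log2(TPM + 1), Benjamini-Hochberg adjusted p under 0.05). That split was 900 lower and 953 higher after median-ratio scaling between libraries, 1058 and 903 after TMM scaling (a trimmed mean of log ratios), and 508 and 1295 once immunoglobulin genes were removed. Over all tested genes the log2 change had a median of -0.10 as deposited, -0.05 and -0.07 after those 2 scalings and 0.07 with that removal. Leaving out young replicate 1 gave 98 lower and 255 higher genes, leaving out young replicate 2 gave 99 and 335, and leaving out old replicate 1 gave 1592 and 388. In a sorted mixture of cells, fewer megakaryocytes and less of a transcript per megakaryocyte cannot be told apart.

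On TPM as deposited, both beta subunits, Itgb3 and Itgb1, were called lower in old mice. The alpha subunits Itga2b, Itga2, Itga6, Itga5 and Itgav did not pass the test. Passing it did not follow the size of the change, since Itga6 (-0.37) and Itga2 (-0.31) had log2 changes near that of Itgb1 (-0.33). Of the 7 members 2 were called lower, where 14.7% of all tested genes were, and 0 were called higher, where 5.2% of all tested genes were. At an unadjusted limma p under 0.05, 3 members were lower and 0 higher, beside 28% and 11.3% of all tested genes. Limma with no variance trend called 0 members in either direction, beside 1.64% of tested genes lower and 1.92% higher. Both old libraries lay below both young libraries for 4 members, Itgb3, Itga2, Itga6 and Itgb1, an order that 46.1% of all tested genes had. The reverse order was found for 0 members and 21.8% of all tested genes. With 7 genes these counts are no result about the set. No member was called under other scalings, where 5.6% of tested genes were lower and 5.93% higher after median-ratio scaling, 6.58% and 5.62% after TMM scaling, and 3.15% and 8.02% once immunoglobulin genes were removed. The median log2 change of the members was -0.31.

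**Figure D1:**
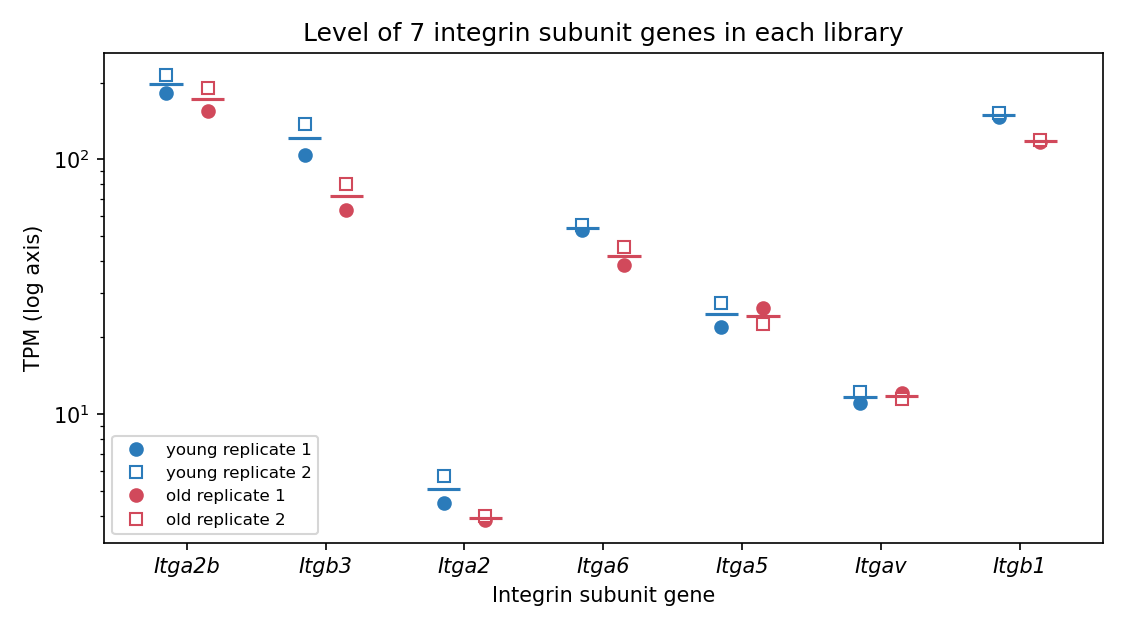
TPM (log axis) of the 7 integrin subunit genes in each library, with young libraries in blue and old in red, filled circles for replicate 1, open squares for replicate 2 and short lines for group means. The old libraries lie below the young ones for Itgb3 and Itgb1, at 63.1 and 80.2 against 104 and 138 TPM and at 118 and 119 against 147 and 152 TPM, and the groups overlap for Itga2b, Itga5 and Itgav.

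The order of the levels was the same in both groups. Itga2b stood highest, followed by Itgb1, Itgb3, Itga6, Itga5, Itgav and Itga2. In neither group did the 2 libraries of one gene overlap those of its neighbour in this order. The closest neighbours in the young group were Itgb1 and Itgb3, with a ratio of mean TPM of 1.23, and in the old group Itga2b and Itgb1, with a ratio of 1.46. Itga2b ranked between 587 and 852 among all gene rows in the 4 libraries and Itga2 between 11018 and 12458.

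Sequence upstream of the transcription start was taken from RefSeq (GRCm38.p6) for 5 of the 7 members by symbol, and is not given for Itgb3 and Itga6. The windows of Itga2b, the most abundant alpha subunit gene, and Itgb1, the most abundant beta subunit gene, are shown because the former is used to mark megakaryocytes and the latter is made by most cells. Each window is the 250 bases before the start, read in the direction of transcription. The Itga2b window is chr11:102469884-102470133 on the minus strand and the Itgb1 window chr8:128685404-128685653 on the plus strand. Capitals mark matches to an ETS core (AGGAAG) or a GC box (GGGCGG) on either strand.
Itga2b: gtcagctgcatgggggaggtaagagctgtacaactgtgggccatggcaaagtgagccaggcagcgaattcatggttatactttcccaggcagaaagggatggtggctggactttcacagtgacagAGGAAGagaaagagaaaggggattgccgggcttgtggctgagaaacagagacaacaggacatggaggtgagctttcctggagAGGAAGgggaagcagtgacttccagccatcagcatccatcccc
Itgb1: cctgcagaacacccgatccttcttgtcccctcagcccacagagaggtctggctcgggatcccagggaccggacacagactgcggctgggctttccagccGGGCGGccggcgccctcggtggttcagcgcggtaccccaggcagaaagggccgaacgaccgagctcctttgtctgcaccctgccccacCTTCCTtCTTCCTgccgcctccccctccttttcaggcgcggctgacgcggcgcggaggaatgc
The Itga2b window held 2 ETS matches, beginning 125 and 43 bases before the start, and no GC box. The Itgb1 window held 2 ETS matches on the opposite strand and 1 GC box. Of 32851 windows of the same length in the table, 29.5% held the ETS core and 32.7% the GC box. A GATA motif, searched on both strands as TGATAA or AGATAA, with G also accepted as the last base, was in 26.5% of all windows and matched in none of the 5 members' windows. These matches describe the letters of the windows only. For Itga5 the bases just after the start were not found in a transcript of the gene, so its start is less certain. Only the first entry of each gene was searched.

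Itgb3, the beta subunit of the fibrinogen and vitronectin receptors, had the largest change of the 7 members. It stood at 104 and 138 TPM in young libraries, against 63.1 and 80.2 TPM in old ones. Both old libraries were below both young ones, and the 2 libraries of each group also stood apart from each other. The group means were 121 ± 23.9 TPM and 71.6 ± 12.1 TPM (SD, n = 2 each), and the log2 change was -0.75 (SE 0.17, limma adjusted p = 0.0442, 95% interval -1.20 to -0.30). Only 2.02% of tested genes had a lower log2 change. Taken relative to the median of all tested genes the deposited values gave a change of -0.65, median-ratio scaling -0.64 and removal of immunoglobulin genes -0.63. The adjusted p was above 0.05 under other scalings, at 0.0753 after median-ratio scaling, 0.0741 after TMM scaling and 0.0804 with immunoglobulin genes removed. It was also above 0.05 without any 1 of the libraries, at 0.0552 without young replicate 1, 0.139 without young replicate 2, 0.121 without old replicate 1 and 0.0637 without old replicate 2, and with the replicate number as a block it was 0.0123.

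In the authors' deposited table of 1255 changed genes Itgb3 was the 1 member listed, at a log2 fold change of -0.50 with SE 0.18 and adjusted p 0.00162, and the other 6 members were not listed. The authors' fold change stands beside a mean normalized count, so it is not the same measure as the limma change of log2(TPM + 1). The authors' deposited table of terms for genes lower in old mice named Itgb3 under 7 terms. Among them, per the authors' deposited table, were hemostasis with 47 listed genes (log10 q-value -7.46), platelet activation, signaling and aggregation with 25 (log10 q-value -4.37) and platelet degranulation with 16 (log10 q-value -4.04).

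Itga2b, the alpha subunit that pairs only with the Itgb3 product, had values of 183 and 214 TPM in young and 156 and 190.0 TPM in old libraries. The groups overlapped, since old replicate 2 lay above young replicate 1. The log2 change was -0.20 (SE 0.13, limma adjusted p = 0.295), with a 95% interval of -0.52 to 0.12, so a fall of that size and a small rise were both within the error. With immunoglobulin genes removed the log2 change of Itga2b was -0.011. It was -0.31 without young replicate 1, -0.087 without young replicate 2, -0.058 without old replicate 1 and -0.34 without old replicate 2.

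Itgav, the other alpha partner of the Itgb3 product, had values of 11.1 and 12.2 TPM in young and 12.1 and 11.5 TPM in old libraries. The groups overlapped, and the log2 change was 0.02 (SE 0.10, limma adjusted p = 0.901, 95% interval -0.23 to 0.27). It was -0.042 without young replicate 1 and -0.015 without old replicate 1.

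**Figure D2:**
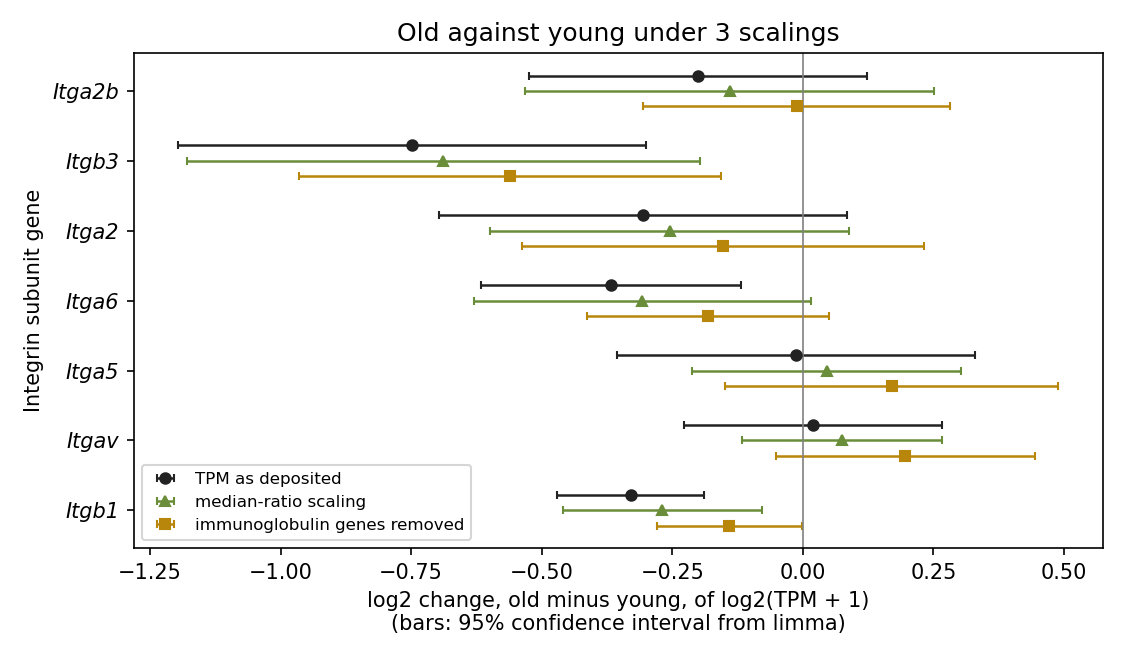
Log2 change (old minus young, of log2(TPM + 1)) of each member with its 95% confidence interval from limma, for TPM as deposited (black circles), after median-ratio scaling (green triangles) and with immunoglobulin genes removed (ochre squares). Itgb3 lies furthest to the left at -0.75, -0.69 and -0.56, and the sign of Itga5 differs between the scalings.

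Itgb1 had a smaller log2 change than Itgb3, a difference that was not tested, with closer replicates. It had values of 147 and 152 TPM in young and 118 and 119 TPM in old libraries. The 2 libraries of a group nearly coincided, and the groups did not overlap. The means were 149 ± 3.58 TPM and 118 ± 1.16 TPM (SD, n = 2 each), and the log2 change was -0.33 (SE 0.06, limma adjusted p = 0.0249, 95% interval -0.47 to -0.19). The log2 change of Itgb1 was -0.14 (adjusted p = 0.153) with immunoglobulin genes removed, and the adjusted p was 0.0747 after median-ratio scaling and 0.0668 after TMM scaling. Without young replicate 1 the adjusted p was 0.172, without young replicate 2 it was 0.192, and with the replicate number as a block it was 0.0654.

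Itga6, which pairs with the Itgb1 product in a laminin receptor, had values of 52.7 and 55.4 TPM in young and 38.4 and 45.3 TPM in old libraries. The groups did not overlap, but the log2 change of -0.37 (SE 0.10) had a limma adjusted p of 0.0561. The adjusted p of Itga6 was 0.0359 without old replicate 2 and 0.0447 when genes were kept from an average of at least 5 TPM, and 0.242 with immunoglobulin genes removed.

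Itga2, the alpha subunit of the integrin collagen receptor of platelets, was the lowest of the 7. It stood at 4.46 and 5.73 TPM in young and 3.83 and 3.98 TPM in old libraries. Both old libraries lay below both young ones by less than the gap between the young libraries themselves. The log2 change was -0.31 (SE 0.15, limma adjusted p = 0.203, 95% interval -0.70 to 0.08). It was -0.16 without young replicate 2, -0.15 with immunoglobulin genes removed and -0.18 with a pseudocount of 5 TPM.

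Itga5, the alpha subunit of the classical fibronectin receptor, had values of 22.0 and 27.3 TPM in young and 26.1 and 22.5 TPM in old libraries. Both old values lay between the young values. The log2 change was -0.013 (SE 0.13, limma adjusted p = 0.953, 95% interval -0.36 to 0.33), and it was 0.046 after median-ratio scaling, 0.023 after TMM scaling and 0.17 with immunoglobulin genes removed. Its sign also changed with the libraries used, from -0.16 without young replicate 1 to 0.14 without young replicate 2.

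Ratios of 2 genes within a library do not depend on the fixed total, so they compare partners without the antibody genes. For 1 Itgb3 transcript there were 1.75 and 1.55 Itga2b transcripts in young libraries, against 2.47 and 2.37 in old ones. The Itga2b to Itgb3 ratio was thus higher in both old libraries than in both young ones, with means of 1.65 ± 0.142 and 2.42 ± 0.0708 (SD, n = 2 each), or 1.47 times as high. The Itgav to Itgb3 ratio was 0.106 and 0.0880 in the young and 0.192 and 0.143 in the old libraries, or 1.73 times as high in old. The gap between the groups was larger than the gap between replicates for the Itga2b to Itgb3 ratio, and smaller than the gap between the old replicates for Itgav to Itgb3. With 2 libraries against 2 the two-sided exact permutation test cannot go below p = 0.333, the value it gave for both ratios (0.500 adjusted over the 9 ratios computed).

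Against Itgb1, the ratios of Itga6 and Itga2 overlapped between the groups, and those of Itga5 and Itgav did not. The Itga6 to Itgb1 ratio was 0.360 and 0.365 in the young and 0.326 and 0.380 in the old libraries, and the Itga2 to Itgb1 ratio was 0.0304 and 0.0378 in the young and 0.0326 and 0.0333 in the old. For both the groups overlapped. The Itga5 to Itgb1 ratio was 0.15 and 0.180 in the young and 0.222 and 0.189 in the old libraries, and the Itgav to Itgb1 ratio was 0.0758 and 0.0803 in the young and 0.103 and 0.0965 in the old. Both were higher in both old libraries, by 1.25 and 1.28 times in the means, with an exact permutation p of 0.333 each. The gap between the groups was smaller than the gap between replicates for the Itga5 ratio, and larger for the Itgav ratio. The Itgb3 to Itgb1 ratio was 0.713 and 0.912 in the young and 0.536 and 0.673 in the old libraries, or 0.744 times as high in old, again at the smallest p the exact permutation test can give. Its gap between the groups was smaller than the gap between replicates of either group.

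**Figure D3:**
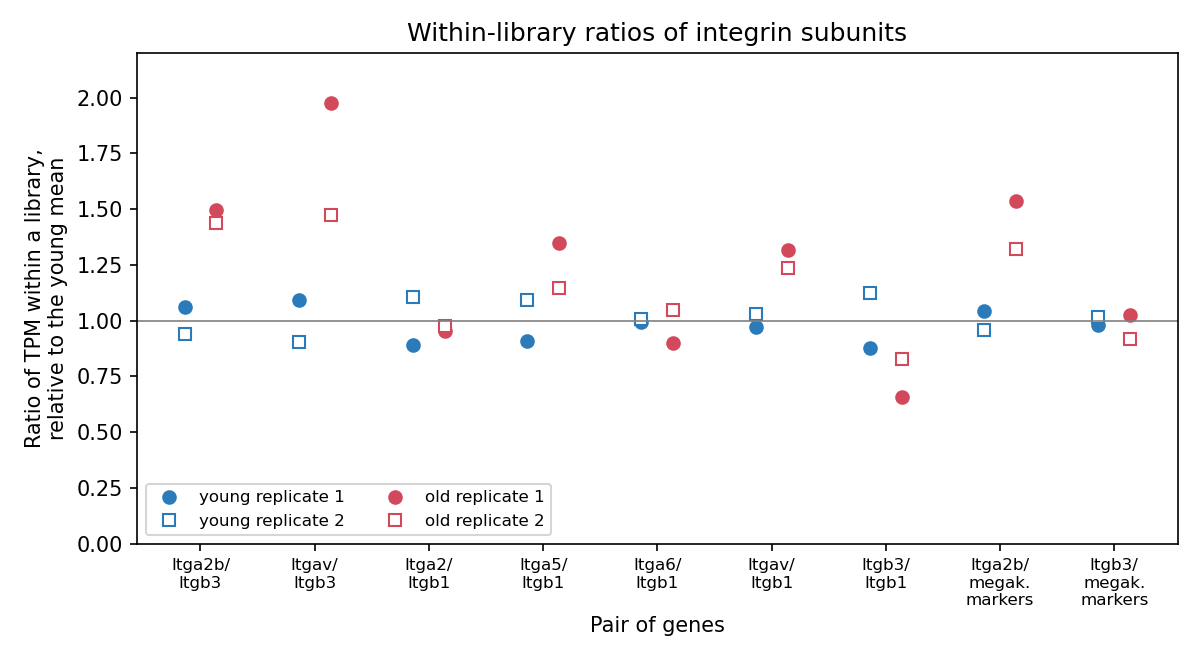
Ratios of TPM within each library, each divided by the mean of its 2 young libraries, for 9 pairs (young in blue, old in red, filled circles replicate 1, open squares replicate 2). The old libraries lie above the young for Itga2b to Itgb3 and for Itga2b to the summed megakaryocyte markers, at 1.47 and 1.43 times the young mean on average, and scatter around the young mean for Itgb3 to the markers.

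Itgb3 and Itga2b were also set against the other megakaryocyte genes. Itgb3 amounted to 0.0578 and 0.0598 of the summed TPM of the 15 markers in the young libraries against 0.0603 and 0.0541 in the old, so the groups overlapped and the mean ratio in old was 0.973 of that in young. Itga2b amounted to 0.101 and 0.0927 of that sum in young libraries, against 0.149 and 0.128 in old ones, or 1.43 times as high in old (exact permutation p = 0.333, n = 2 each). In young libraries Pf4 (746 and 832 TPM) and Ppbp (335 and 631 TPM) were the largest parts of that sum. Both ratios thus lean on these genes and do not stand for megakaryocyte genes in general. Of the 14 markers tested, 2 were called lower, Gp5 and Clec1b, beside 14.7% of all tested genes, and the other 12 were not called. The count of calls is thus no result about the markers. Both old libraries lay below both young for 10 markers, an order that 46.1% of all tested genes had. The log2 changes of the 14 markers ran from -1.52 for Ppbp, a granule chemokine, to 0.30 for Selp, the adhesion receptor P-selectin. The change of Itgb3 lay near those of Gp1ba and Pf4, at -0.76 and -0.63, and that of Itga2b near those of Nfe2 and Vwf, at -0.21 and -0.16, though Vwf was at 0.024 with immunoglobulin genes removed. Scaling every library to an equal mean of these markers was an alternative chosen after seeing the data. It gave log2 changes of -0.13 (SE 0.45) for Itgb3 and 0.42 (SE 0.44) for Itga2b, with limma adjusted p of 0.825 and 0.590. The median over all tested genes was 0.46 on this scale, and relative to it the changes were -0.60 for Itgb3 and -0.04 for Itga2b. This scaling called 0 members, beside 0.117% of tested genes lower and 5.61% higher.

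**Figure D4:**
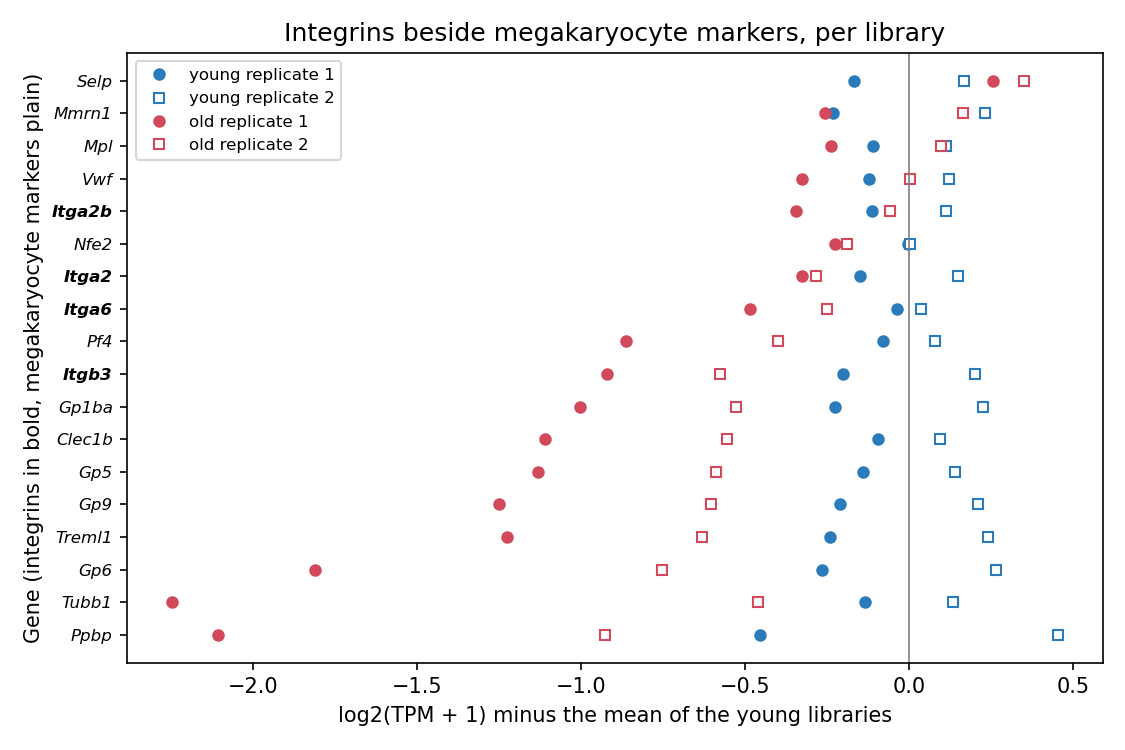
log2(TPM + 1) in each library minus the mean of the young libraries, for Itga2b, Itgb3, Itga2 and Itga6 (bold) and 14 megakaryocyte markers, ordered by log2 change. Old replicate 1 lies furthest left for most genes that are lower in old, Itgb3 sits between Pf4 and Gp1ba, and Itga2b between Nfe2 and Vwf.

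The genes whose pattern over the 4 libraries was most like that of Itga2b, by the largest difference of centred log2(TPM + 1) among 9283 genes averaging at least 10 TPM, were Nudt14, Gm5905, Vwf, Gmpr and Gimap9. Their largest difference from Itga2b in any library was 0.03 to 0.05. The most alike to Itgb3 were Gm5781, F2rl2, Gp1ba, Pde5a and Gnaz, with largest differences of 0.05 to 0.11. F2rl2 encodes a thrombin receptor of mouse platelets and Gp1ba a subunit of the von Willebrand factor receptor. F2rl2 was at 42.2 and 56.4 TPM in young and 23.7 and 32.7 TPM in old libraries, and Gp1ba at 35.8 and 49.4 TPM against 20.5 and 28.9 TPM.

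Markers of some other cells also moved between the groups on TPM as deposited. On that scale 14.7% of all tested genes were called lower and 5.2% higher, and counts near those shares are no result about a cell type. The plasma cell list includes the antibody genes Igkc and Ighm. Calls of these markers under the other scalings are not given. The 16 erythroid markers with a row, of 17, were all above 0 and called lower, and summed to 10160 and 10203 TPM in young and 3120 and 3633 TPM in old libraries. Of 16 monocyte and macrophage markers, all above 0, 12 were lower, and the sum was 1514 and 1543 TPM in young and 1033 and 1117 TPM in old. Of 12 plasma cell markers, all above 0, 11 were higher, with sums of 4268 and 4746 TPM in young and 56732 and 56955 TPM in old. Of 13 stem and progenitor markers, all above 0, 4 were higher and 1 lower, with sums of 402 and 416 TPM in young and 442 and 472 TPM in old. Of 14 B cell markers 11 were lower, with sums of 522 and 574 TPM in young and 317 and 339 TPM in old. Of the tested markers of T and NK cells 1 of 12 was lower, of stromal cells 1 of 8, and of basophils, mast cells and eosinophils 2 of 10 were lower and 1 higher. Of the neutrophil markers 1 was lower and 1 higher, and of 9 tested endothelial markers none passed limma's adjusted p. Since Itgb1, Itga6, Itga5 and Itgav are made by many of these cells, and Itga2b by some progenitors, their values can hold RNA of several sources, and the part of these cells in the changes was not tested.

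Most of the other tested subunits of the family did not pass the same test. Of 20 further integrin subunit genes 12 were tested, of which 3 were lower, 1 was higher and 8 were not called, with a median log2 change of -0.05 beside -0.10 for all tested genes, of which 19.9% were called. Itgad, an alpha partner of the leukocyte beta subunit found on red pulp and other tissue macrophages, was at 11.4 and 13.8 TPM in young and 4.17 and 4.64 TPM in old libraries, with a log2 change of -1.32 (SE 0.13, limma adjusted p = 0.0119). Itga1, a collagen-binding partner of the Itgb1 product, was at 16.9 and 17.5 TPM in young and 11.3 and 11.0 TPM in old, a log2 change of -0.59 (SE 0.08, limma adjusted p = 0.0201). Itgax, the CD11c subunit of dendritic and other myeloid cells, rose from 16.4 and 15.7 TPM to 27.8 and 22.6 TPM, a log2 change of 0.61 (SE 0.12, limma adjusted p = 0.0308). These 3 calls held after median-ratio scaling, after TMM scaling and with immunoglobulin genes removed, but without young replicate 1 the adjusted p was 0.121 for Itga1 and 0.130 for Itgax, without young replicate 2 it was 0.118 and 0.131, and without old replicate 1 it was 0.0523 for Itgax. The remaining lower gene, Itgb5, another beta partner of the Itgav product, was named after its values were seen, at 27.6 and 27.2 TPM in young and 17.8 and 20.7 TPM in old libraries (log2 change -0.49, limma adjusted p = 0.0309, and 0.0784 after median-ratio scaling, 0.0742 after TMM scaling and 0.0902 once immunoglobulin genes were removed).

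**Figure D5:**
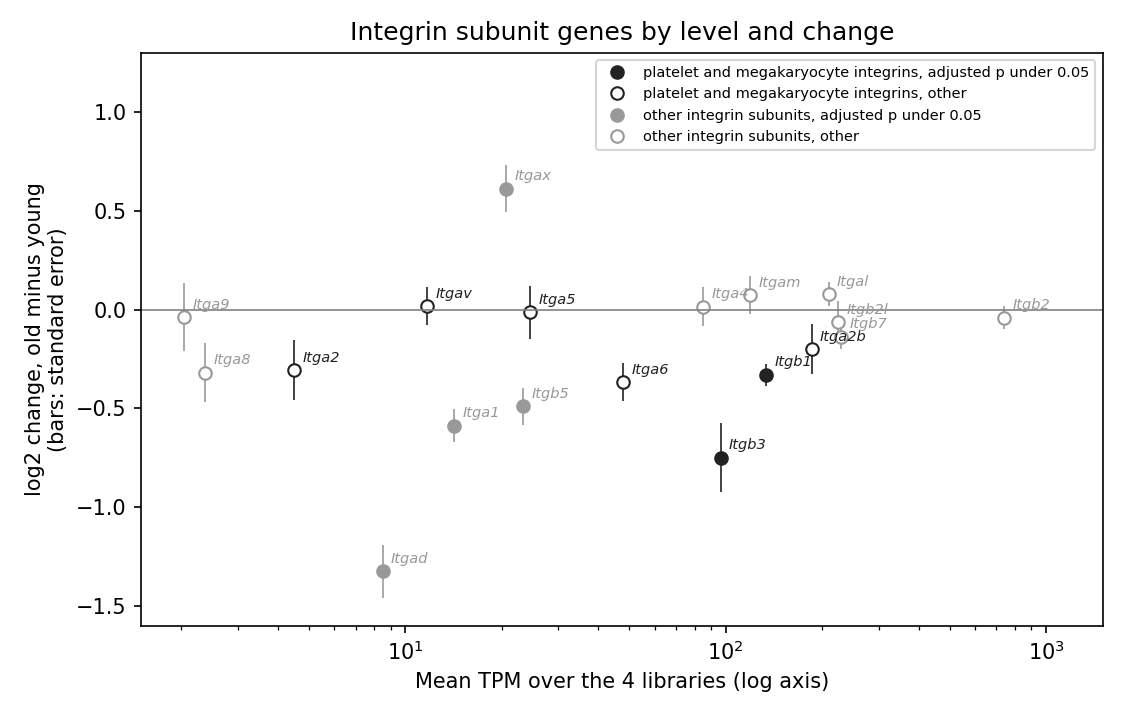
Mean TPM over the 4 libraries (log axis) against log2 change (old minus young, bars are standard errors) for the 7 platelet and megakaryocyte integrins (black) and 12 other tested integrin subunits (grey), with filled points for limma adjusted p under 0.05. Itgb3 and Itgb1 are the filled black points, at -0.75 and -0.33, and Itgad at -1.32 has the lowest log2 change of the integrin genes plotted.

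Inside the cell, talin (Tln1) and kindlin (Fermt3) bind the beta tail and open the receptor, downstream of the small GTPases Rap1a and Rap1b. Of 15 genes of this inside-out step 13 were tested, 2 were lower and 0 higher, beside 14.7% and 5.2% of all tested genes, with a median log2 change of -0.11 beside -0.10. At an unadjusted limma p under 0.05 the counts were 5 and 0, beside 28% and 11.3% of all tested genes, and limma with no variance trend gave 0 and 0. Cib1, a calcium-binding protein that binds the tail of the Itga2b product, was at 113 and 111 TPM in young and 77.9 and 88.1 TPM in old libraries (log2 change -0.43, SE 0.08, limma adjusted p = 0.0271). Rap1a was at 107 and 108 TPM in young and 91.6 and 87.5 TPM in old (log2 change -0.26, SE 0.06, limma adjusted p = 0.0405). Neither call held after median-ratio scaling (adjusted p = 0.0914 and 0.0972), after TMM scaling (0.0842 and 0.0773), with immunoglobulin genes removed (0.0911 and 0.459) or without either young library (0.130 to 0.262). Rap1a also lost its call without old replicate 2 (adjusted p = 0.0579).

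Signals from the occupied receptor run through Src-family kinases and the complex of Ilk with the parvin and Lims1 adaptors. Of 19 genes of this step, all tested, 7 were lower and 0 higher, beside 14.7% and 5.2% of all tested genes, with a median log2 change of -0.11 beside -0.10. At an unadjusted limma p under 0.05 the counts were 8 and 0, beside 28% and 11.3% of all tested genes, and limma with no variance trend gave 0 and 0. With immunoglobulin genes removed 1 was lower and 1 higher, beside 3.15% and 8.02% of tested genes. Ilk was at 215 and 226 TPM in young and 156 and 166 TPM in old libraries (log2 change -0.45, SE 0.06, limma adjusted p = 0.0193). Rac1, a small GTPase of actin spreading, had 206 TPM in both young libraries, against 161 and 164 TPM in old ones (log2 change -0.34, SE 0.05, limma adjusted p = 0.0230). Parvb, the adaptor beta-parvin, changed most of the named 3, from 60.8 and 77.0 TPM to 31.6 and 40.9 TPM (log2 change -0.91, SE 0.17, limma adjusted p = 0.0281). With immunoglobulin genes removed the adjusted p was 0.0513 for Ilk, 0.127 for Rac1 and 0.0435 for Parvb, after median-ratio scaling it was 0.0552, 0.0847 and 0.0515, and after TMM scaling 0.0526, 0.0744 and 0.0515. Without young replicate 1 it was 0.111 for Ilk and 0.185 for Rac1, without young replicate 2 it was 0.126 for Ilk, 0.166 for Rac1 and 0.0950 for Parvb, and without old replicate 1 it was 0.0672 for Parvb.

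Among 23 integrin ligands 18 were tested, 5 were lower and 1 was higher, beside 14.7% and 5.2% of all tested genes, with a median log2 change of -0.01 beside -0.10. Fga, Fgb and Fgg, the fibrinogen chains, were below the minimum of 1 TPM. Vcam1, a ligand of the leukocyte integrin that contains the Itga4 product, fell from 74.7 and 82.9 TPM to 37.0 and 40.9 TPM (log2 change -1.0, SE 0.09, limma adjusted p = 0.00897). Col1a1, a collagen chain, fell from 10.8 and 10.5 TPM to 3.59 and 4.63 TPM (log2 change -1.19, SE 0.14, limma adjusted p = 0.0150). Vcam1 is also among the monocyte and macrophage markers above and Col1a1 among the stromal markers, so their calls were counted there too. Icam4, a red cell adhesion molecule, fell from 18.2 and 15.9 TPM to 8.75 and 10.02 TPM (log2 change -0.80, SE 0.12, limma adjusted p = 0.0208). Without young replicate 1 the adjusted p was 0.0598 for Col1a1 and 0.109 for Icam4, and without young replicate 2 it was 0.0510 and 0.0592. The higher one was Thbs1, thrombospondin of platelet granules and other cells, named after its values were seen, at 109 and 139 TPM in young and 261 and 205 TPM in old libraries (log2 change 0.90, limma adjusted p = 0.0277).

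Of 12 membrane partners of integrins, all tested, 5 were lower and 1 was higher, beside 14.7% and 5.2% of all tested genes, with a median log2 change of -0.27 beside -0.10. With no variance trend 1 was lower and 1 higher. Slc3a2, the CD98 heavy chain that binds beta tails and carries amino acid transporters, rose from 71.1 and 69.1 TPM to 144 and 138 TPM (log2 change 1.0, SE 0.06, limma adjusted p = 0.00373). The 4 libraries formed 2 tight groups for this gene. Tspan33, a tetraspanin of blood precursors, fell from 37.4 and 39.97 TPM to 22.1 and 19.7 TPM (log2 change -0.86, SE 0.09, limma adjusted p = 0.0122). Bsg, the surface protein basigin, fell from 349 and 354 TPM to 239 and 263 TPM (log2 change -0.49, SE 0.07, limma adjusted p = 0.0200). The adjusted p of Bsg was 0.0655 after median-ratio scaling, 0.0621 after TMM scaling, 0.123 without young replicate 1 and 0.114 without young replicate 2, and that of Tspan33 was 0.0525 without young replicate 2.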

How the data were processed

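The authors deposited TPM values for each gene and library, per the file headers. Per the submitters' processing notes, STAR, TopHat, Trim Galore and DESeq2 and the builds mm9 and GRCm39 were used, in roles that are not stated. TPM keeps no depth, so the depth is unknown and no counting interval is given. For changed genes the authors deposited log2 fold changes with standard errors, p-values and a mean normalized count signal, and in their enrichment tables log10 p-values and q-values, per the file headers. Columns were matched to samples by name. Genes averaging at least 1 TPM were fitted as log2(TPM + 1) with limma 3.58.1 (R 4.3.3), with a variance trend, two-sided, and p-values were adjusted by Benjamini-Hochberg over all 16073 genes, with a threshold of 0.05. This scale understates changes of low genes. TMM factors were unweighted trimmed means of log ratios, since TPM gives no reads to weight by, and 95% intervals came from limma. The fit was tested on simulated data with 200 changed genes. It called 35.8% of 1.5-fold, 61.2% of 2-fold and 89.4% of 4-fold changes, and 3.12% of its calls were false. A gene that did not pass may thus still differ. Ratios were compared by exact permutation tests. Alternatives were other pseudocounts, filters, scalings and variance models, a replicate block and each library left out. Upstream windows are from RefSeq (GRCm38.p6), a build not named for the files. The members and lists were chosen with earlier results of these data known. The rule for named genes took all members, up to 3 changed genes with the smallest p of each list averaging at least 5 TPM in either group, and the 5 genes most like Itga2b and Itgb3. Megakaryocyte markers named singly, Itgb5 and Thbs1 were chosen after their values were seen. Figures were drawn with matplotlib 3.10.9.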

Additional observations from a re-analysis of the deposited data

How the results depend on the processing

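Pseudocounts of 0.1 and 5 TPM changed no call of the 7 members. Keeping genes from a mean of at least 5 TPM gave Itga6 (-0.37) an adjusted p of 0.0447, and Itga2 had no value there. With no filter on low values 59 genes were lower and 71 higher, of the members 0 were lower, Itgb3 (-0.75) and Itgb1 (-0.33) had adjusted p of 0.123 and 0.0597, each of the 5 lists had 0 lower, and further subunits and ligands had 0 higher. After median-ratio scaling 900 genes were lower, 0 members, 0 activation genes, 1 signalling gene and 3 membrane partners, and the log2 changes were -0.69 for Itgb3, -0.27 for Itgb1 and 0.046 for Itga5. After TMM scaling 1058 genes were lower, 0 members, 0 activation genes, 1 signalling gene and 3 partners, with -0.71 for Itgb3, -0.29 for Itgb1 and 0.023 for Itga5. With immunoglobulin genes removed 508 genes were lower and 1295 higher, 0 members, 0 activation genes, 1 signalling gene and 2 partners were lower, 2 further subunits, 1 activation gene and 1 signalling gene were higher, and the changes were -0.56 for Itgb3, -0.14 for Itgb1, 0.17 for Itga5 and 0.024 for Vwf. With no variance trend 263 genes were lower and 309 higher, 0 members, 0 activation, 0 signalling, 3 ligand and 1 partner genes were lower, 0 further subunits and 0 ligands were higher, and Itgb3 (-0.75) and Itgb1 (-0.33) had adjusted p of 0.0878 and 0.0753.

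With the replicate number as a block 756 genes were lower and 496 higher, 1 member, 0 activation, 2 signalling and 2 partner genes were lower, and Itgb1 (-0.33) had an adjusted p of 0.0654. The deviations of same-numbered libraries from their group means correlated at -0.146 across genes. With 2 libraries per group, crossing the numbers only turns the sign, to 0.146. This weak value cannot decide whether the numbers pair the libraries. A block with the numbers crossed, chosen after seeing the data, gave 3151 lower and 1498 higher genes and 3 lower members.

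Leaving out each library gave 98 to 1766 lower and 255 to 734 higher genes and 0 to 2 lower members. Lower counts were 1 to 3 for further subunits, 0 to 3 for activation, 0 to 5 for signalling, 1 to 4 for ligands and 0 to 4 for partners, and higher counts were 0 to 1 for further subunits, signalling and ligands. Log2 changes were -0.95 to -0.55 for Itgb3, -0.35 to -0.31 for Itgb1, -0.34 to -0.058 for Itga2b, -0.46 to -0.16 for Itga2, -0.48 to -0.25 for Itga6, -0.16 to 0.14 for Itga5, -0.042 to 0.080 for Itgav and -0.33 to 0.00166 for Vwf. The lone library left in a group is then assumed to vary like the other group.

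Scaling to the megakaryocyte markers, chosen after seeing the data, gave 19 lower genes and 0 lower members. Changes were 0.42 for Itga2b, -0.13 for Itgb3, 0.21 for Itga2, 0.24 for Itga6, 0.59 for Itga5, 0.60 for Itgav and 0.29 for Itgb1. Their SE was 0.43 to 0.46, and the median change of all tested genes was 0.46 on this scale. Relative to that median they were -0.04, -0.60, -0.26, -0.22, 0.12, 0.13 and -0.17 in the same order. With each library left out, the old over young ratio was 1.38 to 1.56 for Itga2b to Itgb3 and 1.48 to 1.98 for Itgav to Itgb3. The cause of these shifts was not tested. The calls of Itgb3 and Itgb1 held only partly across these alternatives, and TPM gives no depth to judge the precision of Itga2.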
